A study of Mus musculus with 4 samples.

Results

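The Rhox, Xlr, Magea, Mageb, Slx and Ssx genes are multicopy families of the mouse X chromosome, known mainly for expression in testis and placenta. Members were all chromosome X genes and pseudogenes of the RefSeq annotation (mm10, GRCm38.p6) whose symbols start with one of these names, 93 of 2512 genes. They comprised 42 Rhox, 16 Xlr, 12 Mageb, 11 Ssx, 10 Magea and 2 Slx genes. Of these, 71 are protein coding and 22 are of other types, such as pseudogenes.

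Folding of chromosome X was measured by Hi-C, which records which stretches of DNA lie close together in the nucleus, in tail tip fibroblasts (TTF) from female mus/cas hybrid mice. The groups were 2 wild-type (WT) and 2 Sirt7-/- (KO) samples. KO cells lack a working gene for SIRT7, a nuclear sirtuin that removes acyl groups from histones and other proteins. Before deposit the authors combined the 2 samples of a genotype and split the reads by X copy, which left 1 matrix for each of WT mus, KO mus, WT cas and KO cas at each bin size. The differences below therefore have no replicate check and no test, and they describe these matrices only. Each matrix entry correlates the contact profiles of 2 chromosome bins, where a profile is how strongly a bin meets every other bin. The number of reads is unknown, and KO entries were more narrowly spread, with SDs at 250 kb of 0.0597 in KO beside 0.0682 in WT for mus, and 0.117 beside 0.131 for cas. Sirt7 is not on chromosome X and the files hold no RNA, so neither the knockout nor the cell type could be checked here. Which X copy is silenced in these cells is not given in the labels, nor are the age and strain of the animals.

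Most of these genes are silent in somatic cells and are switched on in germ cells, placenta or tumours. Rhox genes encode homeobox transcription factors of the reproductive tract, Mage proteins bind and direct ubiquitin ligases, and Xlr and Slx proteins are relatives of the synaptonemal complex protein SYCP3. Ssx genes are the mouse counterparts of the human SSX genes that fuse with SS18 in synovial sarcoma. On an active X, gene-rich stretches tend to meet one another (compartment A) and gene-poor stretches meet one another (compartment B), whereas an inactive X is folded into a pair of large domains that part at the Dxz4 macrosatellite.

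Near-identical copies were the reason to look first at which members had data at all. Members were placed by gene midpoint in 250 kb and 100 kb bins, and a bin that was empty in any of the 4 matrices of a size was left out. At 250 kb, 65 members lay in bins with data and 28 did not, namely 26 of the 42 Rhox genes (61.9%) and both Slx genes. The missing Rhox genes run from Rhox3a to Rhox2-ps, the repeated Rhox2, Rhox3 and Rhox4 copies at the centre of the array, whereas Rhox1 and Rhox2a on one side and Rhox5 to Rhox13 on the other had data. Slx and Slxl1, spermatid genes known for their rivalry with Y-linked Sly, were lost at both bin sizes. Every Ssx, Xlr, Magea and Mageb gene had data at 250 kb. At 100 kb, 61 members had data and 32 (34.4%) did not, spread over 21 Rhox, 4 Xlr, 3 Magea, 2 Ssx and 2 Slx genes, with no Mageb gene among them. In all, 20 members lacked data at both sizes, 8 at 250 kb only and 12 at 100 kb only.

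**Figure D1:**
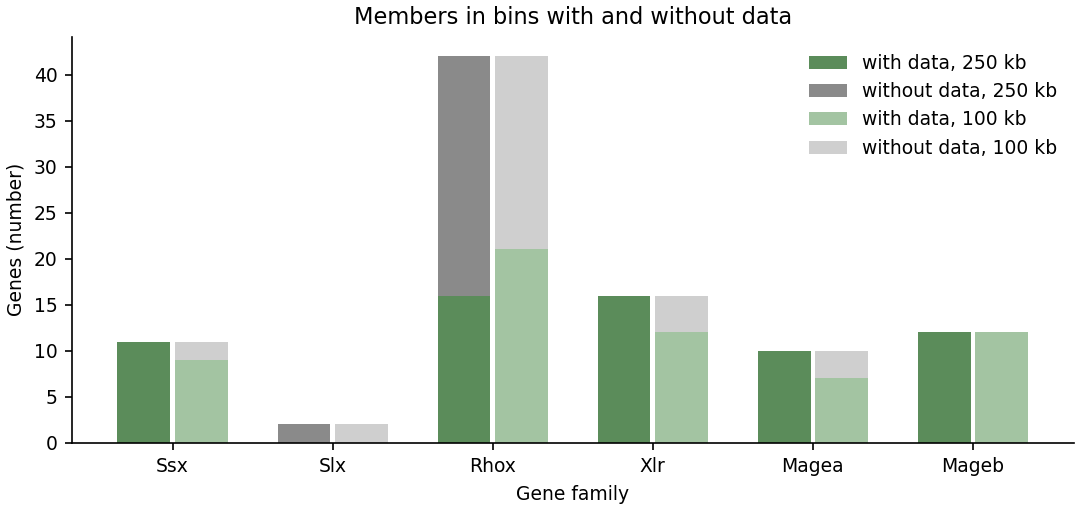
Number of genes of each family (vertical axis) in bins with data (green) and without data (grey), at 250 kb (darker, left bar) and 100 kb (lighter, right bar). Rhox lost 26 of 42 genes at 250 kb and 21 at 100 kb, Slx lost both genes at both sizes, and Mageb lost none.

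Counted in bins, 4 of 31 member bins (12.9%) had no data at 250 kb, close to the 11.2% of all bins beyond the empty start of the chromosome. At 100 kb it was 11 of 43 (25.6%), against 11.7%. Kept member bins also bordered a bin without data more often, 2 of 27 (7.41%) against 2.21% of all kept bins at 250 kb and 9 of 32 (28.1%) against 2.81% at 100 kb. Data were missing in all 4 matrices for 3 of the 4 bins at 250 kb and for 7 of the 11 at 100 kb. The others had data on mus and none on cas. At 250 kb this was the bin from Rhox3d-ps to Rhox2-ps with 15 genes (chrX:37500001-37750000). At 100 kb it held for the bins of Rhox1 to Rhox4a, of Xlr5e-ps, and of Magea6, Magea3 and Magea8, which were 3 of the 7 bins on the chromosome with data on mus alone. The bin from Rhox2b to Rhox2d had data in KO mus only.

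The sequences just upstream of the genes show how alike the copies are. RefSeq promoters (mm10) were matched for 63 members, and the 250 bases before each start were cut into overlapping words of 31 bases. Leaving out promoters that overlap another, 42 of 62 members (67.7%) shared at least 1 word with the promoter of another X gene on either strand, against 203 of 1064 other X promoters (19.1%). All 21 members in 250 kb bins without data shared a word, and 20 of them shared at least 50% of their words. Among the 41 members with data at 250 kb, 21 shared a word (51.2%) and 9 shared at least 50% (22.0%). The contrast was weaker at 100 kb. There 22 of 26 members without data shared a word (84.6%) and 17 at least 50% (65.4%). Of the 36 with data at 100 kb, 20 shared a word (55.6%) and 12 at least 50% (33.3%). Shared words were found in 8 of 9 Ssx, 9 of 11 Xlr, 20 of 27 Rhox, 2 of 2 Slx, 2 of 8 Magea and 1 of 5 Mageb promoters. Whether the likeness of the copies decided which bins lacked data was not tested.

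Rhox2 copies are shown because they sit on both sides of the border between data and no data. Rhox2a (chrX:37244742-37244991, plus strand) lay in a 250 kb bin with data, whereas Rhox2c (chrX:37453409-37453658, plus strand) and Rhox2h (chrX:37673278-37673527, minus strand) lay in bins without. The stretch shown for Rhox2c runs into the gene as placed here, which starts at chrX:37453480. Capitals mark bases that differ from Rhox2a at the same position.
Rhox2a: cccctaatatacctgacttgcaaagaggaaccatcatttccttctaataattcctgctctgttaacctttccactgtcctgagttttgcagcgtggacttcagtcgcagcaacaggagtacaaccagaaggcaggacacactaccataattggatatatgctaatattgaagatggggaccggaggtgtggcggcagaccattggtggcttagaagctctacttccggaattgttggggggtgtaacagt
Rhox2c: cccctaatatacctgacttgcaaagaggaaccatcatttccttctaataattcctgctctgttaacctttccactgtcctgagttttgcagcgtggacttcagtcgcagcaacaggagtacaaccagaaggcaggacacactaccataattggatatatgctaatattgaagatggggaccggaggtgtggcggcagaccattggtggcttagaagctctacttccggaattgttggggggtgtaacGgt
Rhox2h: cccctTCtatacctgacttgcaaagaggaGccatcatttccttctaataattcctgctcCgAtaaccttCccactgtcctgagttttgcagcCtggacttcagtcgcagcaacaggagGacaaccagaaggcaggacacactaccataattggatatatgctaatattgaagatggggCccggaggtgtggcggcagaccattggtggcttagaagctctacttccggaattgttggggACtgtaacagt
Rhox2c differed from Rhox2a at 1 of 250 bases (99.6% identity), and Rhox2h, which is read in the opposite direction near the far end of the array, at 11 (95.6%). Rhox3a (chrX:37249669-37249918, plus strand) and Rhox3h (chrX:37668765-37669014, minus strand) had the same 250 bases letter for letter, although they lie near either end of the repeated stretch and point in opposite directions.
Rhox3a: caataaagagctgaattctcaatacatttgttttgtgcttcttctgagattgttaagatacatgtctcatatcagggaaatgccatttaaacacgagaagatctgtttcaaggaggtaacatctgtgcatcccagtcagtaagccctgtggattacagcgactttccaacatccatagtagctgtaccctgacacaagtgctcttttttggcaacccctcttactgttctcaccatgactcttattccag
Away from the Rhox2, Rhox3 and Rhox4 copies, the promoters of Rhox1, Rhox5, Rhox10, Rhox11, Rhox11-ps2, Rhox12 and Rhox13 shared no word with any other X promoter. Rhox5 (also called Pem), expressed in Sertoli cells and placenta, is the first gene after the gap at 250 kb (chrX:37754358-37754607, plus strand). Its 100 kb bin had no data in any of the 4 matrices, although its promoter shared no word. Mageb16 (chrX:79671436-79671685, minus strand) stands for the Mageb genes, of which 4 of 5 promoters shared no word. Capitals mark CpG sites in this pair.
Rhox5: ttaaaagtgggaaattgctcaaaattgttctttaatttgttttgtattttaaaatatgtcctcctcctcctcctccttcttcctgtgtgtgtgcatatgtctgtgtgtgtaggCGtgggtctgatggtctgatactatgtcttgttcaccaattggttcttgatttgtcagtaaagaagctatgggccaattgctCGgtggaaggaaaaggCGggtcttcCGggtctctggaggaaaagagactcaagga
Mageb16: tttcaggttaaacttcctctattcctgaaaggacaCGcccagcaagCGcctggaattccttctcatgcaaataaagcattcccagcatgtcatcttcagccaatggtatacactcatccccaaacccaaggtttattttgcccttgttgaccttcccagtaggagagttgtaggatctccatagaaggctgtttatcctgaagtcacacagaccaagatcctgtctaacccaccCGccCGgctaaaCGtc
Ssxb1 (chrX:8413055-8413304, plus strand) and Ssxb2 (chrX:8461727-8461976, minus strand) show an intermediate case, with data at 250 kb and none at 100 kb. Capitals mark bases of Ssxb2 that differ from Ssxb1 at the same position, and the run of capitals near the start comes with a shift between the copies.
Ssxb1: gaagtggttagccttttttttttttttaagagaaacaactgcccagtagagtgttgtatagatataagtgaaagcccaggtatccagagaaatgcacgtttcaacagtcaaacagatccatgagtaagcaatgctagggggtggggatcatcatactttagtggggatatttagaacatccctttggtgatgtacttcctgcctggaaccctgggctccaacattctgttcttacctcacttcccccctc
Ssxb2: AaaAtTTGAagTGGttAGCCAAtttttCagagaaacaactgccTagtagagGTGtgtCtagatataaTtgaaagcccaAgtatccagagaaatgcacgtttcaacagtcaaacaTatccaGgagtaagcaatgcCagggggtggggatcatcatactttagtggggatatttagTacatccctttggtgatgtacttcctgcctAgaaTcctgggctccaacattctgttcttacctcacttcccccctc
Ssxb2 matched Ssxb1 at 88.4% of positions. Ssx promoters shared parts only, with 0 of 9 sharing at least 50% of their words. Member promoters held a median of 47.4% GC and 3 CpG sites, against 49.8% and 5 for other X promoters.

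The members with data at 250 kb filled 27 of the 588 kept bins and formed 14 clusters, a cluster being a run of adjacent member bins. Of these, 7 spanned at least 2 bins. In chromosomal order they were Ssxb10 to Ssxb5 (chrX:8250001-9000000), Ssxa1, Rhox1 to Rhox2a (chrX:37000001-37250000), Rhox5 to Rhox7-ps1 (chrX:37750001-38500000), Xlr, Magea4 to Magea10 (chrX:72000001-72500000), Magea9-ps to Xlr5c (chrX:72750001-73500000) and Xlr5d-ps to Xlr4e-ps (chrX:74500001-75000000) on the left of Dxz4. On its right lay Magea7-ps, Mageb16, Mageb4 to Mageb7-ps, Mageb2 to Mageb18 (chrX:91250001-92500000), Mageb16-ps1 and Magea6 to Magea1 (chrX:154750001-155250000). Profiles with little contrast, among the lowest 10% by SD in any of the 4 matrices, were found in 11 of the 27 member bins (40.7%) and in 28.2% of all bins. By family this was 3 of 4 Ssx, 3 of 6 Magea, 2 of 5 Xlr, 2 of 8 Mageb and 1 of 4 Rhox bins.

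The first comparison placed each cluster between the compartments. A compartment score is how strongly a bin correlated with A bins on average, less its average with B bins, counting partners at least 2 Mb away. The classes were taken from the main pattern (first principal component) of the cas matrices, whose extremes of 20% of bins became A at the gene-rich end and B at the other, so cas scores partly reflect the data that defined the classes. Scores on cas ranged widely and on mus narrowly, and the scales are not to be compared between copies. Scores on mus use the same cas classes, although the mus and cas profiles of a bin were hardly alike. Their correlation had a median over all bins of 0.104 in WT and 0.111 in KO. On cas, 6 of 27 member bins were above 0 in WT and 5 in KO, against 35.7% and 33.5% of all bins. On mus, 15 were above 0 in WT and 14 in KO, against 45.7% and 46.1%. The members' median on cas was nevertheless above that of all bins, with -0.0695 beside -0.184 in WT and -0.112 beside -0.167 in KO. On mus it was 0.00918 beside -0.00266 in WT and 0.000255 beside -0.00147 in KO.

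Rhox bins scored above 0 on mus and on both sides of 0 on cas. Rhox1 and Rhox2a shared a class A bin that also holds other genes, 10 protein-coding genes in all, and its score was 0.0335 in WT mus, 0.0287 in KO mus, 0.314 in WT cas and 0.263 in KO cas. These WT scores lay at the 92.0 percentile of all bins on mus and the 93.7 percentile on cas. This cluster falls outside the rule for clusters given in full and was chosen after its values were seen. The 14 genes from Rhox5 to Rhox7-ps1 lay across 3 bins with mean scores of 0.0325 in WT mus, 0.0242 in KO mus, -0.00479 in WT cas and -0.00119 in KO cas. The mus value was thus high in both genotypes and the cas value near 0 in both. Within it the bin of Rhox10, Rhox11, Rhox12 and Rhox13, which include known factors of spermatogonia and later germ cells, had 0.0450 in WT mus, at the 98.5 percentile, and 0.0205 in KO mus. All 4 Rhox bins were above 0 on mus in both genotypes, as were 6 of 6 at 100 kb. On cas it was 2 of 4, and 2 of 6 at 100 kb, in either genotype. All 4 still lay above the cas median of all bins. The lowest had -0.0557 in WT and -0.0699 in KO, beside medians of -0.184 and -0.167. On mus, a score above 0 was not particular to Rhox. Of the other families left of Dxz4, 5 of 5 Xlr and 2 of 4 Ssx bins had it in WT, and 3 and 1 in KO. Right of it, 0 of 8 Mageb bins had it in WT and 2 in KO.

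Mageb bins were below 0 on cas in both genotypes, and 5 of the 8 were of class B. The 5 bins from Mageb2 to Mageb18, of which 3 were of class B, had a mean score of -0.0361 in WT mus, -0.0284 in KO mus, -0.393 in WT cas and -0.355 in KO cas. Mageb18 and Mageb1 had WT mus scores of -0.0503 and -0.0494, at the 0.510 and 0.680 percentiles of all bins. Mageb16, a class B bin, had -0.0168 in WT mus, -0.00392 in KO mus, -0.443 in WT cas and -0.351 in KO cas. Mageb4 and 4 pseudogenes shared another class B bin with -0.0131 in WT mus, 0.00510 in KO mus, -0.446 in WT cas and -0.384 in KO cas. The pseudogene Mageb16-ps1, far to the right, had -0.0126 in WT mus, 0.00420 in KO mus, -0.199 in WT cas and -0.262 in KO cas. In WT cas it lay at the 49.5 percentile of all bins, so it was no lower than the typical bin, while the other Mageb bins lay between the 9.86 and 31.8 percentiles. Across the family, 0 of 8 bins were above 0 in WT on either copy, and the bins held a median of 1.5 protein-coding genes, against 6.5 for Rhox bins.

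Magea genes had no common compartment. The bins of Magea4 and Magea10 had a mean score of 0.0182 in WT mus, 0.00613 in KO mus, -0.0606 in WT cas and -0.152 in KO cas. The pseudogene Magea7-ps, close to Dxz4, had -0.0436 in WT mus, -0.00844 in KO mus, -0.305 in WT cas and -0.255 in KO cas. Magea6 to Magea1, the array of Magea6, Magea3, Magea8, Magea2, Magea5 and Magea1, had -0.00441 in WT mus, 0.00469 in KO mus, -0.274 in WT cas and -0.190 in KO cas. Its bins differed on cas, with -0.414 in WT for Magea6, Magea3 and Magea8 and -0.134 for Magea2, Magea5 and Magea1.

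Xlr clusters differed in their scores on cas. Magea9-ps to Xlr5c, the main Xlr array with Xlr3b, Xlr4b and Xlr4c (known for parent-of-origin expression in brain), spans 3 bins with 25 protein-coding genes. Its mean score was 0.0320 in WT mus, 0.00403 in KO mus, 0.209 in WT cas and 0.146 in KO cas. Xlr3c and Xlr5c lay in the class A bin of this cluster, with 0.281 in WT cas and 0.295 in KO cas. The pseudogenes from Xlr5d-ps to Xlr4e-ps had 0.0217 in WT mus, 0.00667 in KO mus, -0.0328 in WT cas and -0.0709 in KO cas. Xlr itself, alone at chrX:53750001-54000000, had 0.0200 in WT mus, -0.0201 in KO mus, -0.363 in WT cas and -0.278 in KO cas. On cas Xlr thus lay below the other Xlr clusters, at the 26.5 percentile of all bins in WT and the 33.8 percentile in KO. At 100 kb it was near the middle of all bins, at the 46.1 and 53.1 percentiles.

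Ssx clusters had mean scores between the 10th and the 90th percentile of all bins in every matrix. The 10 genes from Ssxb10 to Ssxb5 had a mean score of -0.00426 in WT mus, -0.0122 in KO mus, -0.0704 in WT cas and -0.104 in KO cas. Their middle bin, with Ssxb6, Ssxb3, Ssxb7 and Ssxb8, stood apart on cas at -0.209 in WT and -0.208 in KO. Ssxa1 had 0.0118 in WT mus, -0.0166 in KO mus, -0.0506 in WT cas and -0.0844 in KO cas. These lay at the 70.7, 22.4, 59.0 and 58.2 percentiles of all bins, so a score near 0 was not always near the typical bin.

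**Figure D2:**
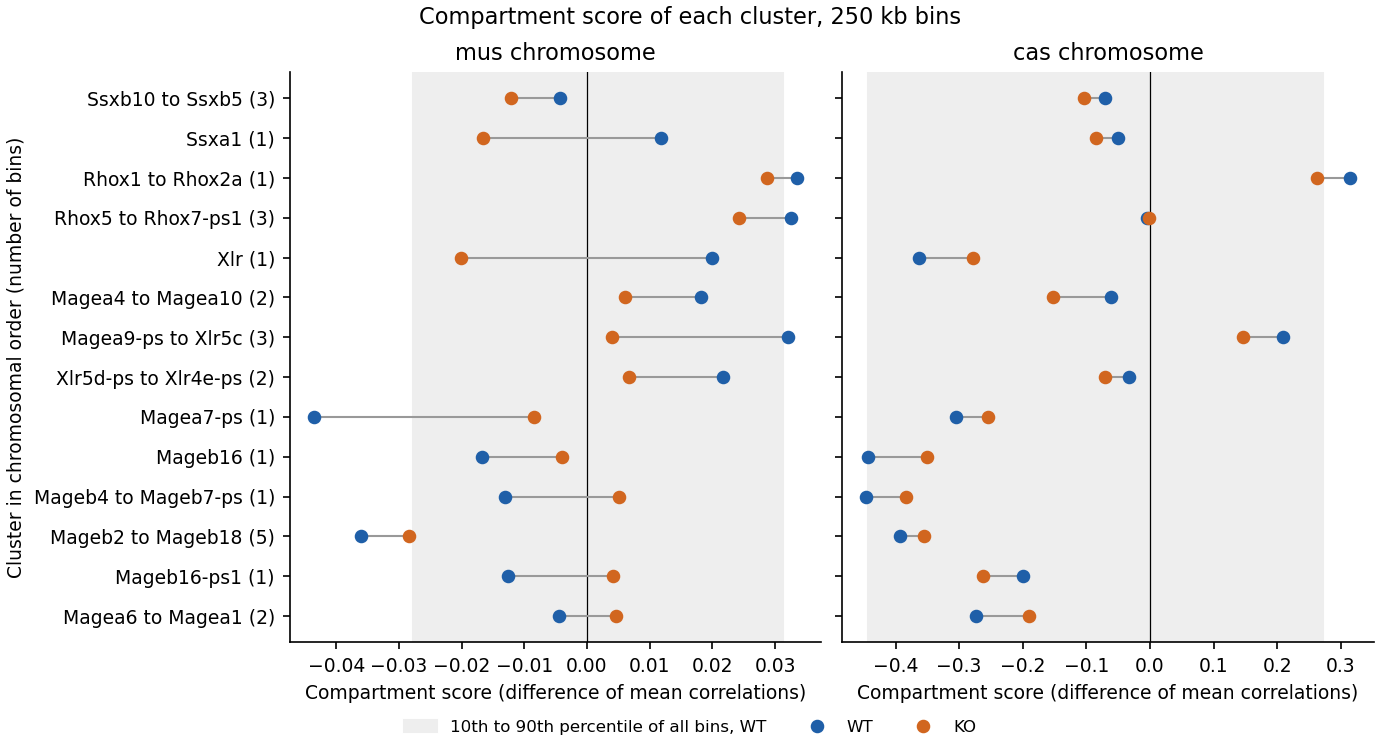
Compartment score (horizontal axis, a difference of mean correlations without unit) of each of the 14 clusters, from the left to the right end of the chromosome, in WT (blue) and KO (orange), on mus (left panel) and cas (right panel, wider scale). The grey band is the 10th to 90th percentile of all bins in WT. Clusters left of Dxz4 (Ssxb10 to Xlr4e-ps) were lower in KO on mus and the 6 on its right were higher.

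Next, WT and KO were compared. Scores on mus were lower in KO in 17 of 27 member bins, against 47.3% of all bins, with a median KO minus WT difference of -0.0106 for members and 0.00158 for all bins. The sign of the score differed between genotypes in 9 of 27 (36.1% of all bins), and the difference passed 1 SD of the WT and KO differences over all bins in 8 (33.0%). On cas it was lower in KO in 12 of 27 (39.1% of all bins), with a median of 0.00612 for members and 0.0230 for all bins. The sign differed there in 1 of 27 (6.29%) and the difference passed 1 SD in 6 (24.5%). The members' median thus lay below that of all bins on both copies, and the share of large differences on mus and cas was near the background.

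The side of Dxz4 went with the direction. Left of it, 14 of 16 member bins were lower in KO on mus, against 85.3% of all bins there, and right of it 3 of 11, against 22.8%. The members' shares were thus close to those of their surroundings on mus. Their mus medians were -0.0161 on the left and 0.0168 on the right, above the -0.0218 and 0.0113 of all bins on these sides. At 100 kb they were -0.000931 and 0.00108, beside -0.00297 and 0.00234, so on the right the order turned. On cas, 11 of 16 were lower in KO on the left (46.8% of all bins) and 1 of 11 on the right (34.3%). The cas medians were -0.0378 and 0.0505, beside 0.00863 and 0.0292 for all bins. There the members' shares lay further from those of all bins than on mus, a gap that was not tested.

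All Ssx, Rhox and Xlr bins lie left of Dxz4, all Mageb bins right of it, and 3 of 6 Magea bins on either side, so families and sides cannot be told apart. By family on mus, all 5 Xlr bins were lower in KO, with a median difference of -0.0162, as were 3 of 4 Ssx bins (-0.0167), 3 of 4 Rhox bins (-0.00492) and 4 of 6 Magea bins (-0.00938). Of the Mageb bins 2 of 8 were lower in KO, with a median of 0.0148, against the 22.8% of all bins right of Dxz4. Ssx, Rhox and Xlr stand against 85.3% of all bins on the left, so these counts lay near those of their sides. Over clusters, the lowest differences were those of Xlr (-0.0401) and Ssxa1 (-0.0283), and the highest those of Magea7-ps (0.0352) and Mageb4 to Mageb7-ps (0.0182). Xlr went from the 79.9 percentile of all bins in WT to the 16.5 percentile in KO, and Magea7-ps from the 1.70 to the 35.7 percentile.

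On cas, 1 of 8 Mageb bins was lower in KO (34.3% of all bins right of Dxz4), with a median of 0.0422. On the left, where 46.8% of all bins were lower, it was 3 of 4 Ssx bins (-0.0378), 3 of 4 Rhox bins (-0.0131) and 2 of 5 Xlr bins (0.00612). Magea had 3 of 6 lower. At 100 kb the Rhox median turned to 0.00480, with 2 of 6 bins lower, and the Xlr median to -0.00404, with 3 of 6 lower. The highest cluster differences on cas were those of Mageb16 (0.0918) and Xlr (0.0847), and the lowest those of Magea4 to Magea10 (-0.0913) and Mageb16-ps1 (-0.0636). Both of the highest had a negative score in WT that was less negative in KO, while Magea4 to Magea10 moved away from 0. Without the family Mageb the cas median of the list turned to -0.0208. It was -0.0180 when each matrix was divided by the SD of its entries, and -0.0148 over the 14 clusters. Without the bins of little contrast it was 0.0432, over 16 bins, so the size and sign of this median moved with the choice of bins and scale.

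**Figure D3:**
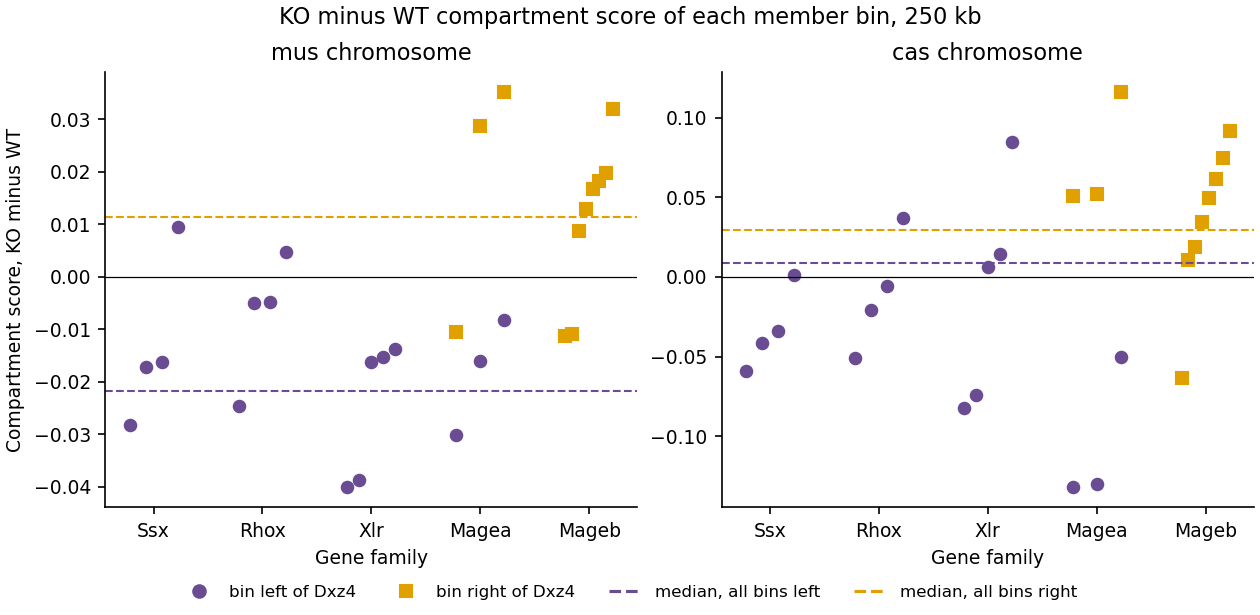
KO minus WT compartment score (vertical axis, without unit) of each of the 27 member bins by family, on mus (left) and cas (right, wider scale), for bins left (purple circles) and right (yellow squares) of Dxz4. Dashed lines are the medians of all bins on either side, -0.0218 and 0.0113 on mus and 0.00863 and 0.0292 on cas.

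Read from the 100 kb bins of the same members, the KO minus WT difference kept its sign in 10 of 13 clusters on mus, against 80.6% of all bins, and in 12 of 13 on cas, against 89.1%. Rhox1 to Rhox2a could not be read at 100 kb. On mus the sign turned for Xlr (0.00267), Magea4 to Magea10 (0.00172) and Magea6 to Magea1 (-0.000821), so the direction of these clusters differed between bin sizes. On cas it turned for Xlr5d-ps to Xlr4e-ps (0.00261). Magea7-ps kept its direction on both copies, with 0.0160 on mus and 0.0102 on cas.

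Whole contact profiles of member bins were also set side by side. The correlation of a bin's WT profile with its KO profile had a median of 0.384 over member bins and 0.491 over all bins on mus, and of 0.830 and 0.848 on cas. It lay under the 10th percentile of all bins in 6 of 27 member bins on mus and 4 on cas, beside a background of 10.0% by construction. The lowest on cas, 0.153, was that of the bin of Xlr5e-ps, Xlr3e-ps and Xlr4e-ps, and the lowest on mus, 0.118, that of Mageb16-ps1. On mus the highest was that of Magea7-ps (0.731), and on cas that of Mageb18 (0.920).

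The second comparison asked whether bins of a cluster resemble each other more than bins at the same distance elsewhere. Within the 7 clusters of at least 2 bins at 250 kb they mostly did not. The mean correlation of bins in a cluster was below the mean for that distance in 7 of 7 clusters in WT mus, 6 in KO mus, 6 in WT cas and 5 in KO cas. At 100 kb it was below in 4 of 6 clusters in WT mus and in 5 of 6 in each other matrix, against 51.3% to 54.4% of all runs of 2 or 3 bins. Among all runs of 3 bins at 250 kb it was below in 52.0%, 53.6%, 54.6% and 53.0%, in the same order, and among runs of 2 bins in 51.6%, 49.1%, 51.8% and 50.6%. Within Ssxb10 to Ssxb5 the mean correlation was 0.0652 in WT mus, 0.0581 in KO mus, 0.0927 in WT cas and 0.137 in KO cas, beside distance means of 0.147, 0.129, 0.188 and 0.176. Every one of these 4 values was low for its distance. The profiles of this cluster also had little contrast, with a mean SD of 0.0482 in WT mus and 0.0622 in WT cas. The medians over all bins were 0.0635 and 0.116. Whether low contrast went with the low correlations was not tested.

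The 3 bins from Rhox5 to Rhox7-ps1 had 0.137 in WT mus, 0.0864 in KO mus, 0.107 in WT cas and 0.128 in KO cas. Magea4 to Magea10 had 0.105 in WT mus, 0.179 in KO mus, 0.0421 in WT cas and 0.120 in KO cas. It was thus higher in KO on both copies, but as in any cluster of 2 bins each value is a single bin pair. At 100 kb it had 0.0805 in WT mus, 0.0548 in KO mus, 0.0248 in WT cas and 0.0260 in KO cas, so the mus direction turned. Magea9-ps to Xlr5c had 0.129 in WT mus, 0.0801 in KO mus, 0.0986 in WT cas and 0.0882 in KO cas. At 250 kb these clusters were thus below their distance means, apart from Magea4 to Magea10 in KO mus (distance mean 0.131). The pseudogene cluster Xlr5d-ps to Xlr4e-ps had 0.0829 in WT mus, 0.100 in KO mus, 0.0769 in WT cas and 0.0699 in KO cas. Magea6 to Magea1 had 0.123 in WT mus, 0.0324 in KO mus, 0.195 in WT cas and 0.201 in KO cas. The last had the largest difference on mus of the 7 clusters, -0.0910. Mageb2 to Mageb18 had 0.0916 in WT mus, 0.0850 in KO mus, 0.243 in WT cas and 0.223 in KO cas. It was above its distance means on cas (0.174 and 0.162), the exception among the 7 in WT.

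Between genotypes the within-cluster correlation was lower in KO in 5 of 7 clusters on mus, against 67.3% of all runs of 3 bins and 60.1% of runs of 2, and in 3 of 7 on cas, against 56.9% and 55.9%. The median difference was -0.00710 on mus and 0.00590 on cas, both small beside the range over clusters, -0.0910 to 0.0744 on mus and -0.0206 to 0.0776 on cas. Neither median held under all alternatives: it was 0.00117 on mus with matrices divided by their SD, and -0.00463 on cas at 100 kb.

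**Figure D4:**
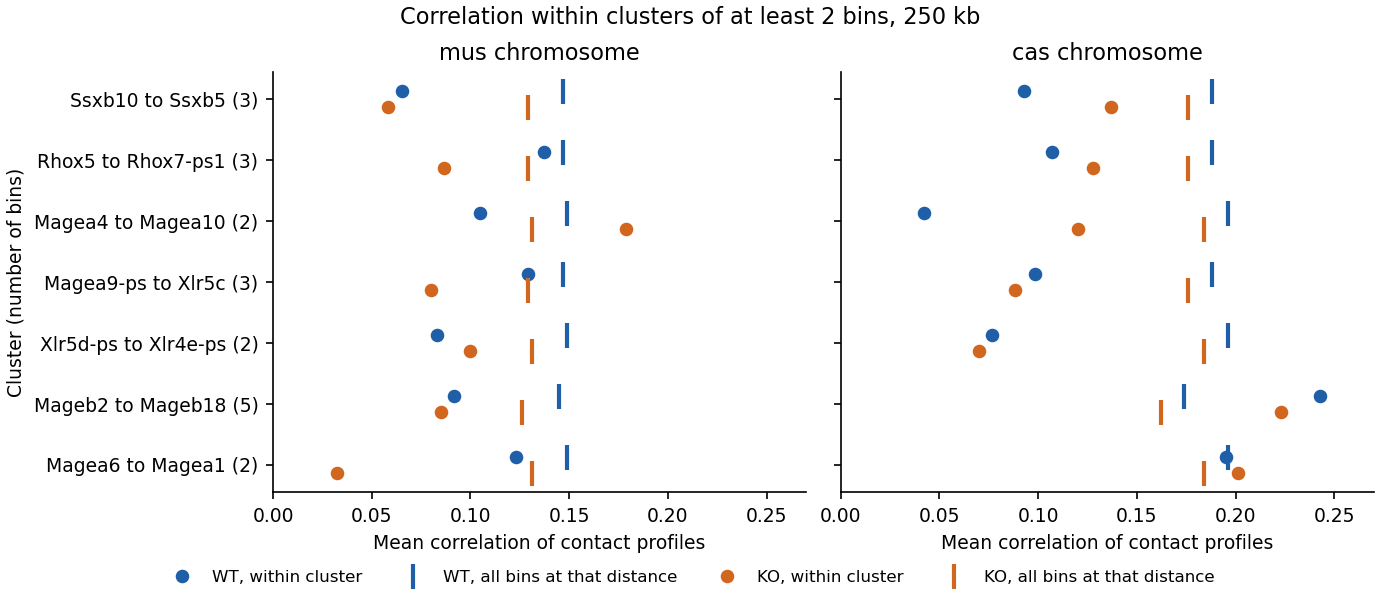
Mean correlation of contact profiles (horizontal axis, without unit) among the bins of each of the 7 clusters of at least 2 bins, in WT (blue) and KO (orange) on mus (left) and cas (right). Bars mark the mean of all bin pairs at the same distances, and Mageb2 to Mageb18 on cas lies above its bars at 0.243 and 0.223.

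The third comparison took pairs of clusters at least 2 Mb apart, 88 in all, each read as the correlation above the mean of all bin pairs at the same distance. Families did not form one group of like profiles: the mean over all pairs was -0.0189 in WT mus, -0.00326 in KO mus, 0.0130 in WT cas and 0.0172 in KO cas. Mageb clusters were alike on cas. Their 6 pairs had a mean of 0.170 in WT and 0.150 in KO, and 6 of 6 were above 0 in both, against 48.4% and 49.2% of all bin pairs. On mus the same pairs had 0.0129 and 0.00726, with 3 and 4 of 6 above 0 against 50.5% and 49.5%. At 100 kb, 13 of 15 Mageb pairs were above 0 in WT cas and 15 in KO cas, with means of 0.0239 and 0.0378. The highest pair in WT cas was Mageb16 with Mageb4 to Mageb7-ps, at 0.265, which had 0.176 in KO. In KO cas the highest was Magea7-ps with Mageb4 to Mageb7-ps, at 0.185. High cas values were thus not limited to Mageb pairs. Of the 16 pairs of a Magea with a Mageb cluster, 12 were above 0 on cas in WT and 12 in KO. Mageb16 with Magea6 to Magea1 had 0.210 in WT and 0.0332 in KO. The shares of all bin pairs cover bins of every class, whereas 5 of the 8 Mageb bins were of class B, which was defined on cas.

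Rhox and Mageb clusters were unlike on cas at 250 kb, with a mean of -0.108 in WT and -0.0816 in KO over 8 pairs and 0 of 8 above 0 in either. On mus their mean was -0.0498 in WT, with 0 of 8 above 0, and 0.00753 in KO, with 4 of 8. At 100 kb these contrasts were small or turned: on cas the mean was -0.0109 in WT, with 7 of 21 pairs above 0, and 0.00380 in KO, with 11 of 21, and on mus 9 of 21 were above 0 in WT and 7 in KO. Of both Rhox clusters at 250 kb, Rhox1 to Rhox2a had the lower values on cas, with -0.230 in WT and -0.216 in KO towards Mageb4 to Mageb7-ps, whereas Rhox5 to Rhox7-ps1 had -0.0712 and -0.00622 with the same bin. Xlr had 0.190 in WT and 0.110 in KO towards Mageb16 on cas. Towards Rhox1 to Rhox2a it had -0.211 and -0.240.

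On mus the sign of the mean followed Dxz4 in both genotypes, and on cas it did so in WT. The mus mean was -0.0440 in WT and -0.0138 in KO for clusters across it, beside 0.00989 and 0.00882 for those on one side. The cas mean was -0.0151 in WT and 0.00165 in KO across it, beside 0.0451 and 0.0349 on one side. Of the 47 pairs across, 12 were above 0 in WT mus and 15 in KO mus, against 50.5% and 49.5% of all bin pairs. On cas it was 23 in WT and 24 in KO, near the 48.4% and 49.2% of all bin pairs. The negative WT cas mean thus did not come with fewer pairs above 0. The KO minus WT difference over all 88 pairs was 0.0156 on mus, and -0.00107 over the 41 pairs on the same side, so at 250 kb it rested on the pairs across. At 100 kb it was 0.000102 over 207 pairs and 0.00139 over the 115 across Dxz4, of which 60 were lower in KO, so the difference was close to 0 there. Magea7-ps, the member nearest to Dxz4 on the right, had the most negative pairs on mus in WT: -0.179 with Xlr, -0.159 with Rhox1 to Rhox2a and -0.151 with Magea9-ps to Xlr5c. In KO these were -0.0452, -0.0528 and -0.0536. Its excess of correlation with its own side over the far side was 0.101 in WT mus and 0.0502 in KO mus, beside medians of 0.0193 and 0.0156 over all bins. Mageb16, the next cluster to the right, had 0.0684 and 0.0285. At 100 kb the excess of Magea7-ps was 0.0387 in WT mus and 0.0325 in KO mus, beside medians of 0.00572 and 0.00539. That of Mageb16 was 0.0215 and 0.0245, so its direction turned between bin sizes.

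**Figure D5:**
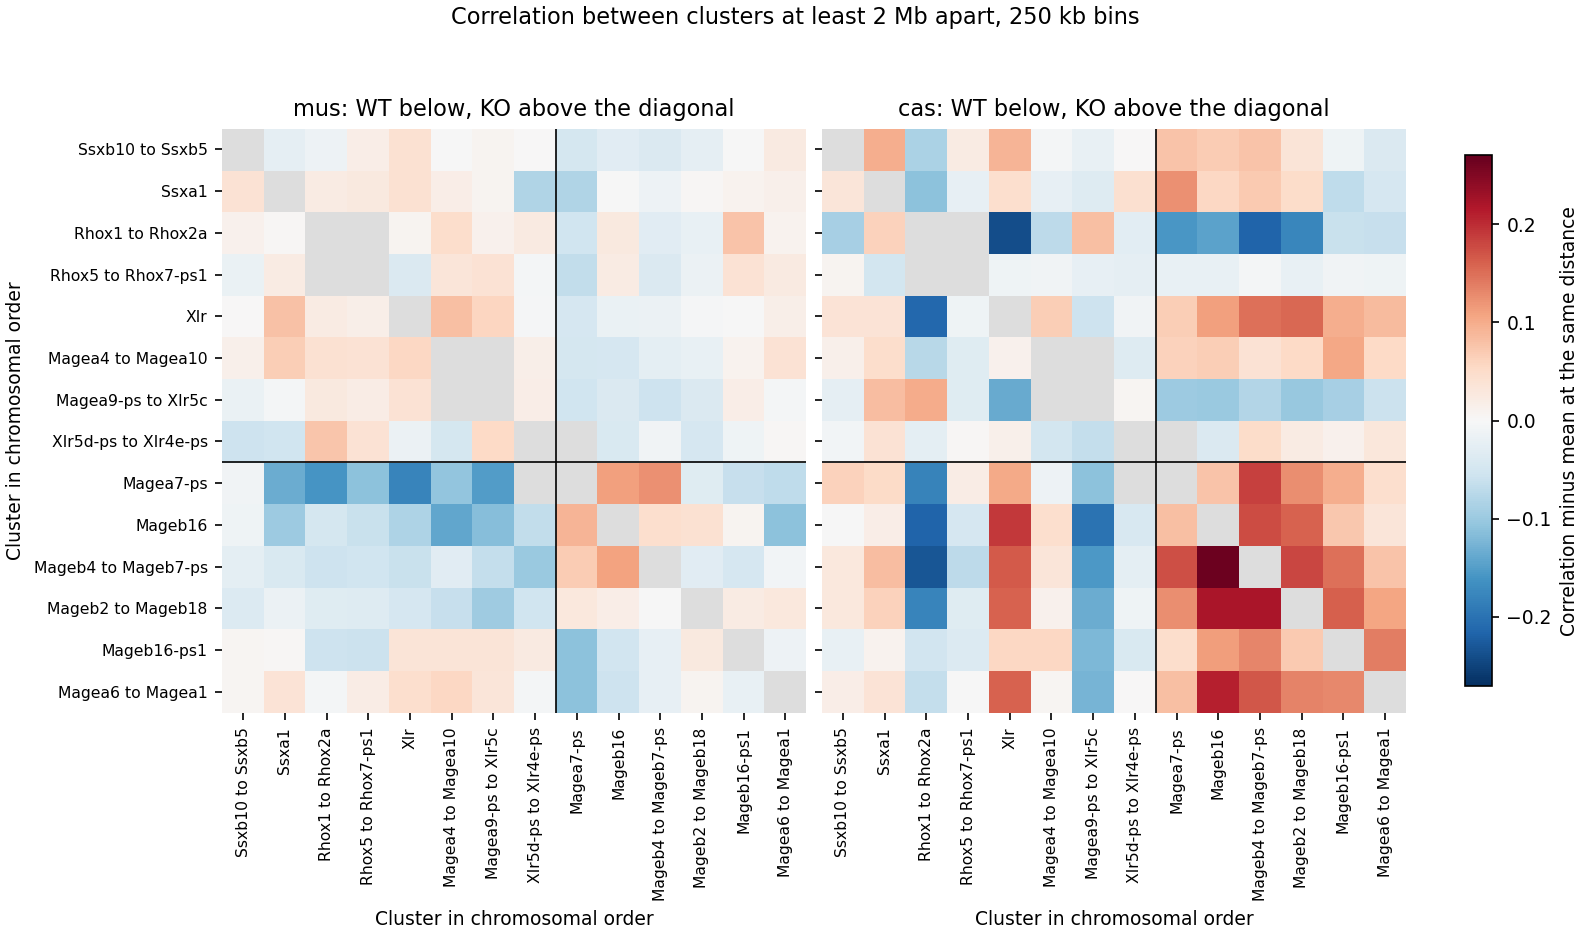
Correlation above the mean at the same distance (colour, red above and blue below 0) for each pair of the 14 clusters, WT below and KO above the diagonal, on mus (left) and cas (right). Grey squares are pairs closer than 2 Mb and the black lines mark Dxz4, so the off-diagonal blocks are pairs across it, blue for Magea7-ps in WT mus. The red block of the 6 right-hand clusters on cas holds the Mageb pairs, with a mean of 0.170 in WT and 0.150 in KO.

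Neighbouring clusters were read directly, at any distance. Rhox1 to Rhox2a and Rhox5 to Rhox7-ps1, the flanks of the repeated Rhox copies across a gap of 0.5 Mb, had a mean correlation of 0.167 in WT mus, 0.181 in KO mus, 0.0546 in WT cas and 0.0870 in KO cas. The distance means were 0.139, 0.120, 0.140 and 0.127, so the flanks were more alike than their distance on mus and less alike on cas, in both genotypes. Mageb4 to Mageb7-ps with Mageb2 to Mageb18, 4.75 Mb away, had 0.0930 in WT mus, 0.0493 in KO mus, 0.295 in WT cas and 0.248 in KO cas, and was far above its distance means on cas (0.0742 and 0.0680). Xlr5d-ps to Xlr4e-ps and Magea7-ps face each other across Dxz4 at 1.25 Mb. Their correlation was 0.0146 in WT mus, 0.126 in KO mus, 0.0960 in WT cas and 0.0743 in KO cas, with distance means of 0.131 and 0.113 on mus. In WT mus this pair was thus far below its distance mean, and in KO mus above it. At 100 kb the cluster falls into 2 parts. Xlr5d-ps to Xlr4d-ps had 0.0374 in WT mus and 0.0344 in KO mus, close to its distance means of 0.0376 and 0.0318. Xlr3e-ps to Xlr4e-ps had 0.0279 and 0.00402, below its means of 0.0387 and 0.0315 in both genotypes.

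Other X genes of testis or placenta were read the same way from a list of 35, of which 34 were matched, and 27 bins remained after those without data or shared with members were left out. Among them are Plac1 and Esx1 of placenta and Tex11, Akap4 and Taf7l of male germ cells. On mus 8 of these 27 bins were lower in KO, with a median difference of 0.00399, where members had 17 of 27 and -0.0106 and 47.3% of all bins were lower. Right of Dxz4 lay 18 of these 27 bins and 11 of the 27 member bins. On cas it was 14 of 27 with -0.00929, where members had 12 of 27 and 0.00612 and 39.1% of all bins were lower. At 100 kb 15 of 30 were lower on mus and 14 of 30 on cas, and both medians changed sign, to -3.84e-05 and 0.00122. Their median WT cas score was 0.0260, against -0.0695 for member bins and -0.184 for all bins. Plac1 had 0.462 in WT cas and 0.416 in KO cas, also far towards A, and the Samt genes, which lie beside Magea6 to Magea1 or Mageb4, ranged from -0.451 for Samt3 to -0.227 for Samt1 in WT cas. The difference between these lists was not tested.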

How the data were processed

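Hi-C libraries of 4 samples, 2 WT and 2 KO, were cut with HindIII after formaldehyde fixation, per the labels' protocols. The deposited values are scores, namely correlations of the contact profiles of 2 bins of chromosome X. Per the file headers, the authors made them for each allele after joining both replicates of a genotype. Tools listed in the submitters' processing notes are Bowtie2, cutadapt, Juicer and HOMER, with the build mm10. Not given in the sources used here are their versions, the allele rule, the contact normalization and the read number. The series' design text speaks of Xist binding, but labels and headers are those of Hi-C, which is how the values were read. Noise from few reads shrinks such correlations, smaller bins hold fewer reads, and reads from near-identical copies can be dropped or misplaced by mapping.

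From the 8 matrices, a bin with an empty row in 1 or more of the 4 of its size was dropped. This kept 588 of 683 bins (250 kb, used for the main values) and 1461 of 1707 (100 kb). Genes were placed by RefSeq midpoint, and the bin of the midpoint of 4933407K13Rik, the Dxz4 transcript, divided left from right. Every cluster was named, with values in all 4 matrices for clusters of at least 2 bins, for the largest cluster of each family, and for the 2 highest and 2 lowest by KO minus WT compartment score on each allele. Members and lists were chosen with earlier results of these data known. With 1 matrix per genotype and allele, no test was made. Alternatives were 100 kb bins, a minimum distance of 5 Mb, A and B shares of 10% and 30%, division by the SD, subtraction of distance means, omission of weak bins, protein-coding members, and each family left out. The functions were tested on simulated data. Pasd1 of the comparison list was not matched. Python 3.11.15, numpy 2.4.6, pandas 2.3.3, scipy 1.17.1 and matplotlib 3.10.9 were used.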

Additional observations from a re-analysis of the deposited data

Results flagged for a closer look

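The following KO minus WT differences had opposite signs on the 2 X copies. They come from 1 matrix per genotype and allele, so the contrast between copies was not tested, and mus and cas scores are on different scales. The median compartment score of the member bins differed by -0.0106 on mus and 0.00612 on cas, and the median within-cluster correlation by -0.00710 on mus and 0.00590 on cas. Xlr, alone in its bin, had a compartment score difference of -0.0401 on mus and 0.0847 on cas. For Mageb16-ps1 the difference was 0.0168 on mus and -0.0636 on cas, and for Rhox5 to Rhox7-ps1 it was -0.00827 and 0.00361. The mus direction of Xlr turned at 100 kb, whereas those of Mageb16-ps1 and Rhox5 to Rhox7-ps1 were the same at both bin sizes.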

How the results depend on the processing

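No paired analysis was possible because both replicates of a genotype were joined before deposit, so the columns carry no replicate number, and no replicate could be left out. Over 112 alternatives for 8 results, 98 kept their sign and stayed within the spread over bins, clusters or pairs. For a share, staying within its exact binomial interval was enough. Both limits are wide and count bins, clusters or pairs as separate units, although they come from the same combined matrices. The interval of the mus share was 42.4% to 80.6%, and the spread beside the cas score median of 0.00612 was 0.0656. Staying inside such limits says little about stability. Of the others, 12 changed sign and 2 moved outside the spread or interval. Leaving out Slx, counted for each of the 8 results, could not change a value because both Slx genes lacked data. All 16 alternatives of the mus score median, this one included, kept its sign (-0.0152 to -0.000593). Those of the share of mus bins lower in KO all stayed above 50% (53.1% to 78.9%). The cas score median of 0.00612 turned to -0.0180 with matrices divided by their SD, -0.0148 over clusters and -0.0208 without Mageb, and was 0.0432 without weak bins. The share of cas bins lower in KO, 44.4%, was 25.0% over the 16 bins left without weak bins, and passed to the other side of 50% with division by the SD (55.6%) and without Mageb (57.9%). The within-cluster median on mus, -0.00710, was 0.00117 after division by the SD and -0.0910 over the 5 clusters left without weak bins. On cas it turned from 0.00590 to -0.00463 at 100 kb and to -0.000555 without Rhox or without Ssx, each leaving 6 clusters. The between-cluster difference turned from 0.0156 to -0.00107 on mus for pairs on the same side of Dxz4, and was 0.000102 at 100 kb. On cas it turned from 0.00419 to -0.0102 for those pairs, -0.00537 for protein-coding members, -0.00756 without weak bins and -0.000549 without Mageb. Apart from the smaller number of bins, clusters or pairs, the cause was not tested. Read depth is unknown, so its effect on the sparser 100 kb bins could not be measured.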

Other observations

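Rhox copies left out above because cas had no data still had values on mus. The 15 genes from Rhox3d-ps to Rhox2-ps (chrX:37500001-37750000) had a compartment score of 0.0343 in WT mus and 0.0102 in KO mus, beside 0.0335 and 0.0287 for Rhox1 to Rhox2a and 0.0325 and 0.0242 for Rhox5 to Rhox7-ps1. The bin was thus as far towards A as its flanks in WT mus and below them in KO mus. At 100 kb the bin of Rhox1 to Rhox4a had 0.00185 in WT mus and 0.00545 in KO mus, that of Magea6, Magea3 and Magea8 had 0.00873 and 0.00621, and that of Xlr5e-ps had 0.00368 and -0.00130. Over the chromosome, the empty 100 kb bins numbered 237 in WT mus, 234 in KO mus, 244 in WT cas and 241 in KO cas. These bins were chosen after the data were seen, and their values were not compared further.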
